A study of Homo sapiens with 8 samples.

Results

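The machinery of autophagy was examined through 39 genes that act in its initiation, membrane growth, lipidation, cargo recognition and fusion. They were chosen by gene name, with earlier results of these data known, and all 39 were measured among the 18239 genes of the arrays. Total RNA came from human lines of oral squamous cell carcinoma (OSCC), namely Ca9-22, HSC2, HSC3 and SAS-L1, reverse transfected by the same reagent with 20 nM of a mimic of mature human miR-375 or 20 nM of the non-targeting mimic miR-NT. RNA was taken 48 h after transfection and hybridized to 8 Affymetrix Human Genome U219 arrays, 1 for each line and condition. The comparison was therefore made inside each line, mimic against miR-NT, and no line could be tested by itself. Each gene was read from its brightest probe set with a single gene symbol, as a log2 signal after robust multichip averaging (RMA), the authors' background correction and normalization.

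A gene is said to have risen or fallen where limma, a linear model fitted over all genes with the line as a block, gave an adjusted p under 0.05. Differences are log2 signals, mimic minus miR-NT, as the mean ± SD of the 4 lines, and values of single lines follow the order SAS-L1, HSC2, HSC3 and Ca9-22. Whole dishes were lysed, so a change in every cell and a change in some of the cells cannot be told apart. The arrays measured RNA, and the rate at which cargo is degraded was not analysed here. Of 10 squamous epithelial markers 7 were matched, and 6 of these exceeded 5.01, the median over all probe sets, on every array. The remaining epithelial marker, KRT14, ranged from 4.05 to 11.28. The 6 fibroblast markers measured ranged from 2.80 (LUM) to 5.48 (COL1A1), and 5 of them stayed below that median on every array. The 4 leukocyte markers measured ranged from 3.15 (PTPRC) to 6.67 (CD68) and the 4 endothelial markers from 3.40 (TEK) to 5.77 (VWF), and CD68 and VWF exceeded the median on every array. None of these 14 markers rose or fell, and their part in the results was not tested. Of the matched epithelial markers, KRT5 and SFN fell with the mimic.

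Autophagy encloses cytoplasm in a growing double membrane, the phagophore, and delivers it to the lysosome. The ULK kinase complex starts the process, and the class III PI3-kinase makes the lipid PI3P at the site of growth. ATG9A, the ATG2 proteins and PI3P-binding WIPI proteins then bring lipids and further factors to the membrane. Ubiquitin-like conjugation attaches the ATG8 proteins (LC3 and GABARAP families) to the membrane, where cargo receptors bind them, and SNARE proteins finally join the closed autophagosome with the lysosome. In carcinoma cells the pathway recycles nutrients and damaged organelles. A miRNA lowers mRNAs mainly through pairing of its seed, bases 2 to 8, with their untranslated regions.

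The mature RNA that the transfected agent mimics is shown here, because the seed sets which transcripts that RNA can pair with. The RefSeq sequence lies at chr2:219001648-219001669 (GRCh38.p14, minus strand), and the capitals mark the seed.
hsa-miR-375-3p: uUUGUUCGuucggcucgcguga

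Across the 4 OSCC cell lines, 11 of the 39 autophagy genes rose with the mimic and 1 fell. The rises took in 4 of the 5 ATG8 genes and 4 of the 7 genes of phagophore growth, together with ATG13, the protease ATG4B and the cargo receptor CALCOCO2. Most were modest, with log2 differences of 0.40 to 0.58, and GABARAPL1 alone among them exceeded 2-fold, at 2.12-fold. The fall was that of RB1CC1, the large scaffold of the ULK complex. Over all genes, 7.36% rose and 5.19% fell. Only 3 of the 39 genes had a mean signal under 5.01, the median over all probe sets. In a fit without such dim genes, 1437 of 10749 genes rose and 1034 fell, and of 36 members 12 rose and 1 fell. The median difference of the 39 genes was 0.23, and that of all genes was 0.03. The signal was higher with the mimic in each of the 4 lines for 19 of the 39 genes, against 20.9% of all genes, and lower in each line for 4, against 11.9%. Of the class III PI3-kinase complex, the conjugation enzymes and the fusion genes, 14 genes in all by the brightest probe set, none rose or fell. An unadjusted limma p under 0.05 was found for 4 of them, near the 26.3% of all genes.

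**Figure D1:**
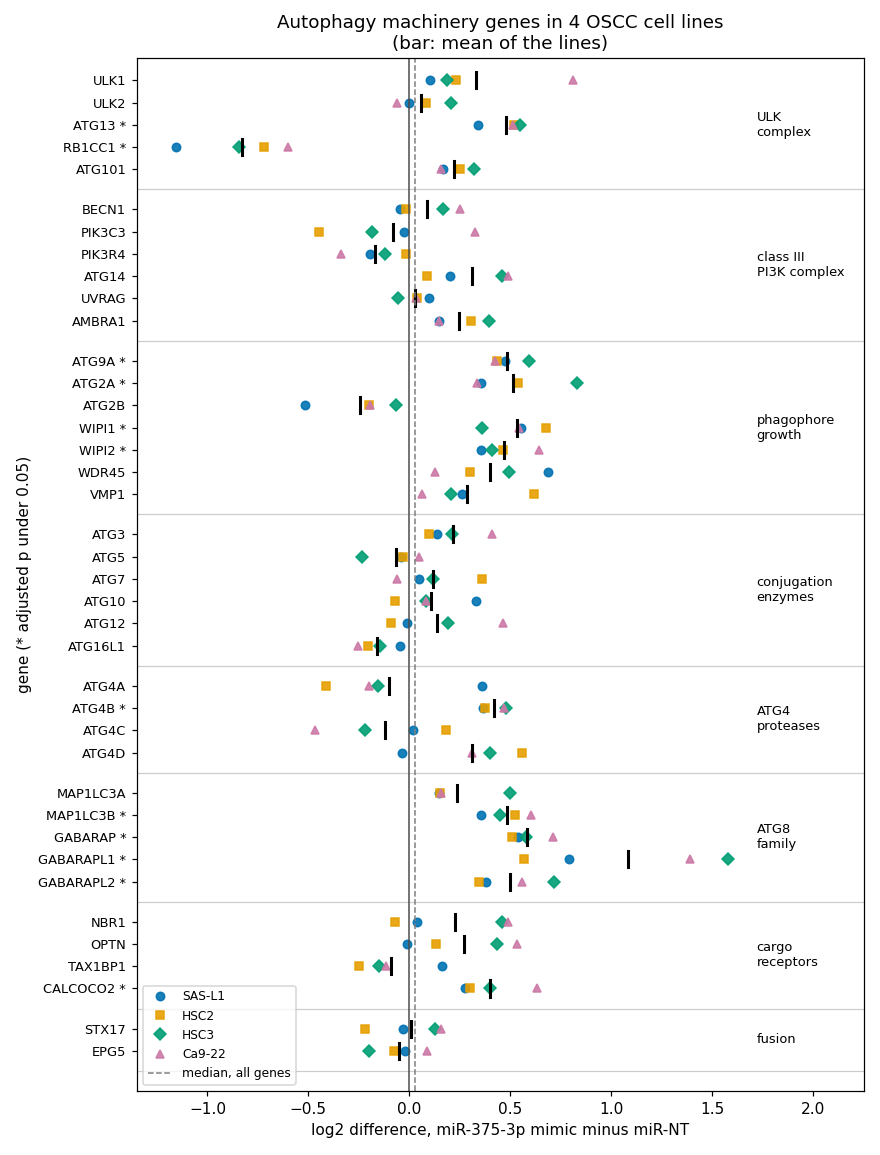
Log2 difference between the miR-375-3p mimic and miR-NT for the 39 autophagy genes, grouped by role, with 1 symbol per cell line and a bar at the mean. Asterisks mark the 12 genes with an adjusted p under 0.05, and all symbols of the ATG8 family lie above 0.

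The ATG8 proteins are the ubiquitin-like proteins that coat the autophagosome. GABARAPL1, an ATG8 protein of the GABARAP branch, had log2 signals of 6.76, 5.19, 6.82 and 5.34 with miR-NT and of 7.55, 5.75, 8.40 and 6.73 with the mimic. It was higher in every line, but the lines lay so far apart that the conditions overlapped. The difference was 1.08 ± 0.48 (SD, n = 4 cell lines; limma adjusted p = 0.0158), a 2.12-fold rise, with 0.57 in HSC2 and 1.58 in HSC3 as the extremes. Without Ca9-22 the call was lost at a difference of 0.98 (adjusted p = 0.0569).
GABARAP, the founding member of that branch, had signals of 10.06, 10.52, 10.63 and 9.58 with miR-NT and of 10.60, 11.02, 11.21 and 10.29 with the mimic. Its rise was nearly the same in the 4 lines, from 0.51 in HSC2 to 0.71 in Ca9-22, with a mean of 0.58 ± 0.09 (adjusted p = 0.00630), and it passed the test with any line left out.
GABARAPL2, which also acts in Golgi traffic, had signals of 10.22, 10.45, 9.73 and 10.28 with miR-NT and of 10.60, 10.80, 10.45 and 10.84 with the mimic. All mimic arrays lay at or above the highest miR-NT array, by a margin within rounding for HSC3. The difference of 0.50 ± 0.17 (adjusted p = 0.0154) was lost narrowly without HSC2 (0.0504) or Ca9-22 (0.0561).
MAP1LC3B, the LC3 protein most often used as a marker of autophagosomes, had signals of 8.39, 8.82, 8.36 and 9.51 with miR-NT and of 8.74, 9.34, 8.80 and 10.11 with the mimic. Ca9-22 was the highest line in both conditions. The difference of 0.48 ± 0.11 (adjusted p = 0.00986) did not pass without HSC2 (0.0534).
MAP1LC3A, the other LC3 gene among the members, missed the threshold at 0.24 ± 0.17 (adjusted p = 0.119). Its miR-NT signals of 4.62 to 4.92 lay below the median of all probe sets. HSC3 differed by 0.50 and the other lines by 0.15 to 0.16.

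**Figure D2:**
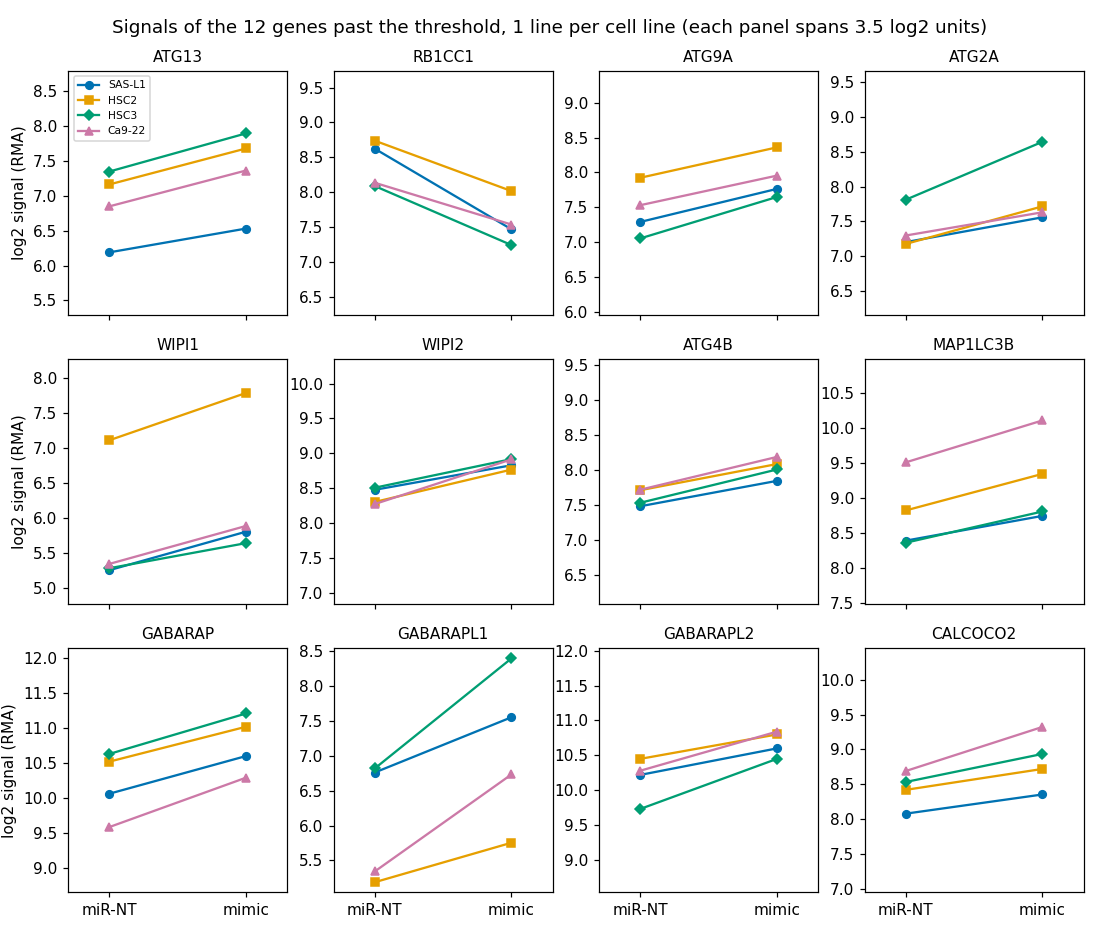
RMA log2 signals of the 12 autophagy genes with an adjusted p under 0.05, with miR-NT on the left and the mimic on the right of each panel and 1 line per cell line. Every cell line is higher with the mimic in 11 panels and lower in that of RB1CC1, and WIPI1 in HSC2 stands well above the other lines in both conditions.

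Phagophore growth was the other role with several rises. ATG9A, the membrane protein that seeds the phagophore and moves lipids between its leaflets, had signals of 7.29, 7.92, 7.05 and 7.53 with miR-NT and of 7.76, 8.36, 7.65 and 7.95 with the mimic. The rise was even across the lines, from 0.42 in Ca9-22 to 0.59 in HSC3, with a mean of 0.48 ± 0.08 (limma adjusted p = 0.00836).
ATG2A, a lipid transfer protein that feeds the growing membrane, had signals of 7.20, 7.18, 7.81 and 7.30 with miR-NT and of 7.56, 7.72, 8.64 and 7.63 with the mimic. HSC3 was the highest line and also rose the most, by 0.83. The mean difference was 0.51 ± 0.23 (adjusted p = 0.0229, and 0.0947 without HSC2). Its paralog ATG2B went the other way in each line, at -0.24 ± 0.19, and was not called (adjusted p = 0.131). The difference between the paralogs was not tested.
WIPI1 and WIPI2 bind PI3P, and WIPI2 recruits the lipidation machinery through ATG16L1. WIPI1 had signals of 5.25, 7.11, 5.28 and 5.34 with miR-NT and of 5.80, 7.79, 5.64 and 5.88 with the mimic. HSC2 was thus far above the other lines, yet the rise in that line, 0.68, was of the same order as in the rest. The mean difference of WIPI1 was 0.53 ± 0.13 (adjusted p = 0.00933). WIPI2 had signals of 8.48, 8.30, 8.51 and 8.27 with miR-NT and of 8.83, 8.77, 8.92 and 8.91 with the mimic, so the conditions did not overlap. Its difference was 0.47 ± 0.12 (adjusted p = 0.0125, and 0.0593 without HSC2).
WDR45, a further PI3P-binding protein of this family, missed the threshold with a difference of 0.40 ± 0.24 (adjusted p = 0.0521) and was higher in each line, by 0.12 in Ca9-22 to 0.69 in SAS-L1. It passed when dim genes were left out (adjusted p = 0.0399). VMP1, a lipid scramblase of the endoplasmic reticulum, had a difference of 0.29 ± 0.24 (adjusted p = 0.123).

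In the ULK complex the changes ran in opposite directions. RB1CC1, also called FIP200, had signals of 8.62, 8.74, 8.09 and 8.13 with miR-NT and of 7.47, 8.02, 7.24 and 7.54 with the mimic. Each mimic array lay below all the miR-NT arrays. It was 1.78-fold lower, with a difference of -0.83 ± 0.24 (limma adjusted p = 0.00762), of which SAS-L1 showed the most at -1.15. The call held with any line left out, the highest adjusted p being 0.0444 without HSC2.
ATG13, the adaptor that holds the ULK kinases and RB1CC1 together, had signals of 6.19, 7.16, 7.35 and 6.85 with miR-NT and of 6.53, 7.68, 7.89 and 7.36 with the mimic. The rise was 0.34 in SAS-L1, the lowest line, and 0.51 to 0.55 in the other lines. Its mean was 0.48 ± 0.09 (adjusted p = 0.00922, and 0.0510 without HSC2).
ATG101, which stabilizes ATG13, was higher in each line by 0.16 to 0.32 but was not called (0.22 ± 0.08, adjusted p = 0.0649). The kinases themselves were dim. ULK1 had miR-NT signals of 4.69 to 4.89 and a difference of 0.33 ± 0.32 (adjusted p = 0.154), of which Ca9-22 gave 0.81, and ULK2 had miR-NT signals of 4.00 to 4.25 and a difference of 0.06 ± 0.12 (adjusted p = 0.700).

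The class III PI3-kinase complex held 6 of the members, and none passed the test by the brightest probe set. The catalytic subunit PIK3C3 had a difference of -0.08 ± 0.32, with -0.45 in HSC2 and 0.33 in Ca9-22. Its partner kinase PIK3R4 had -0.17 ± 0.14, and BECN1, the scaffold shared by the complexes, had 0.09 ± 0.14. ATG14, which directs the kinase to autophagy, had a difference of 0.31 ± 0.20 (limma adjusted p = 0.0717), and UVRAG, which takes its place in endosomal complexes, had 0.03 ± 0.06. A second ATG14 probe set was nearly as bright, with a miR-NT mean of 6.67 against 6.79. It rose by 0.34 ± 0.09 (limma adjusted p = 0.0237 in the fit over probe sets). The BECN1-binding regulator AMBRA1 was higher in each line, with 0.25 ± 0.12 (adjusted p = 0.0693).

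None of the 6 conjugation genes passed the test either. ATG7, the E1-like enzyme of both conjugation systems, had a difference of 0.12 ± 0.18, and the E2-like enzymes ATG3 and ATG10 had 0.21 ± 0.14 (limma adjusted p = 0.119) and 0.11 ± 0.17. For ATG3 the mean of its probe sets passed (0.25, adjusted p = 0.0389). ATG12, ATG5 and ATG16L1, which form the E3-like complex, had differences of 0.14 ± 0.25, -0.07 ± 0.12 and -0.16 ± 0.09.
The ATG4 proteases trim ATG8 proteins before lipidation and release them afterwards. ATG4B, the most active on LC3, had signals of 7.48, 7.71, 7.53 and 7.72 with miR-NT and of 7.85, 8.09, 8.01 and 8.19 with the mimic. The conditions did not overlap, and the difference of 0.42 ± 0.06 (adjusted p = 0.0103) had a small spread between the lines and held with any line left out. ATG4D had 0.31 ± 0.25 (adjusted p = 0.114), and without SAS-L1, where it was -0.04, it passed at 0.42 (adjusted p = 0.0424). By the brightest probe set, ATG4A and ATG4C had differences of -0.10 ± 0.33 and -0.12 ± 0.28 and did not keep a direction over the lines. A second probe set of ATG4A had a miR-NT mean of 6.68, against 6.67 for the brightest. It was lower in each line, at -0.31 ± 0.20, and was not called (limma adjusted p = 0.0765 in the fit over probe sets).

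Cargo receptors bind ubiquitinated cargo and ATG8 proteins at once. CALCOCO2, also called NDP52, had signals of 8.08, 8.42, 8.53 and 8.69 with miR-NT and of 8.36, 8.72, 8.94 and 9.32 with the mimic. Its order of lines was the same in both conditions. The rise of 0.40 ± 0.16 (limma adjusted p = 0.0254) was the least firm of the 11, since it did not pass without HSC2 (0.0756), HSC3 (0.0778) or Ca9-22 (0.0633).
By the brightest probe set, NBR1 and OPTN had differences of 0.23 ± 0.29 and 0.27 ± 0.26. These were 0.44 to 0.53 in HSC3 and Ca9-22 and -0.07 to 0.13 in SAS-L1 and HSC2. Over all NBR1 probe sets the difference in SAS-L1 ran from 0.03 to 0.49. TAX1BP1 had -0.09 ± 0.18 (adjusted p = 0.598). Neither fusion gene changed by the test. STX17, the SNARE protein of the closed autophagosome, had a difference of 0.01 ± 0.17, and EPG5, a tether at the lysosome, had -0.05 ± 0.12.

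By line, in the order above, the 39 genes had median differences of 0.15, 0.15, 0.21 and 0.25, where all genes had medians of 0.01, 0.02, 0.04 and 0.05. Among the 11 genes that rose, the largest difference of the lines was in HSC3 for 6 genes, in Ca9-22 for 4 and in HSC2 for 1. SAS-L1 held the smallest for 5 of them. Their median rise was 0.36, 0.51, 0.55 and 0.56 in the same order. With 1 pair of arrays per line, these differences between lines were not tested.
The number of genes that rose depended on the lines used. It was 12 without SAS-L1 (4.7% of all genes), 10 without HSC3 (3.12%) and 8 without Ca9-22 (3.43%). Without HSC2 it was 5, at 1.74% of all genes, namely ATG9A, WIPI1, ATG4B, GABARAP and GABARAPL1. RB1CC1 remained the single fall in each of these fits, in which 4.37%, 1.92%, 2.93% and 2.94% of all genes fell without SAS-L1, HSC2, HSC3 and Ca9-22. Without the line as a block limma called none of the 39 genes, and of all 18239 genes 0 rose and 6 fell. At an unadjusted limma p under 0.05, 4 of the 39 were higher and 1 lower, where 3.23% of all genes were higher and 3.2% lower.

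**Figure D3:**
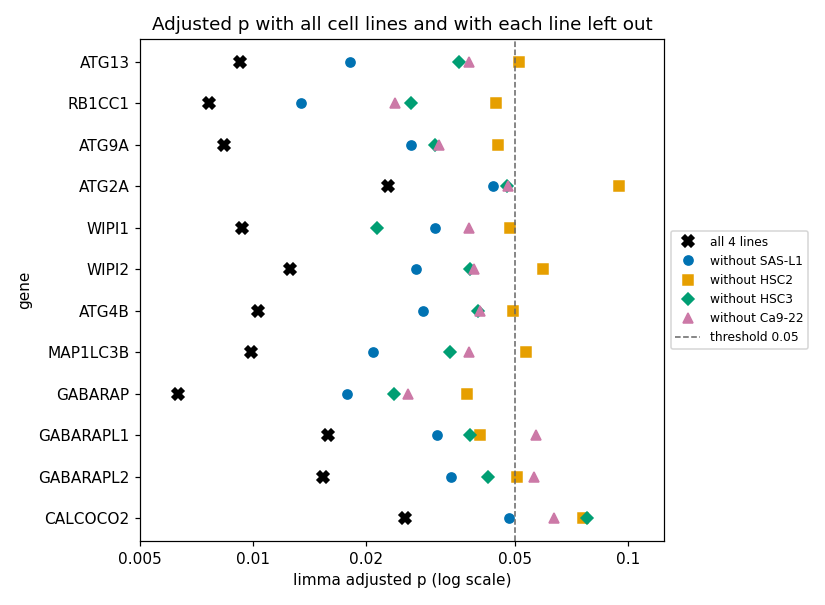
Limma adjusted p, on a log axis, of the 12 autophagy genes past the threshold, with all 4 cell lines (crosses) and with each line left out (colored symbols). RB1CC1, ATG9A, WIPI1, ATG4B and GABARAP stay under the dashed threshold of 0.05 in every fit, and leaving out HSC2 gives the highest value for most genes.

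Further probe sets bear on these readings, because types _s_at and _x_at can also bind related transcripts. GABARAPL1 and MAP1LC3B have near-identical copies elsewhere in the genome, so their signals are uncertain to that extent. The 39 genes had 129 probe sets with a single symbol, of which 32 rose and 2 fell in a fit over all 45259 such probe sets, where 5.96% rose and 5.39% fell. The brightest probe set was of type _s_at or _x_at for 7 of the 12 genes past the threshold. For 6 of these 7 a probe set of type _at or _a_at, assigned to that gene only, also passed. CALCOCO2 was the exception, since its _a_at probe set had a difference of 0.26 (limma adjusted p = 0.0888).
Both probe sets of RB1CC1 fell, by 0.83 and 0.64. All 4 probe sets of GABARAPL2 rose, by 0.48 to 0.53, and so did all 3 of MAP1LC3B, by 0.28 to 0.49. The probe sets of GABARAPL1 were less alike. Its _a_at probe set rose by 0.53, that is, by less than the 1.08 of the brightest, and a dim one with a miR-NT mean of 3.78 had a difference of 0.02. A further _x_at probe set rose by 0.78. In HSC2 the _a_at set and this further _x_at set differed by 0.10 and 0.14, against 0.57 for the brightest.
For GABARAP, 2 probe sets rose by 0.58 and 0.64, whereas an _at probe set with a miR-NT mean of 7.19 had a difference of 0.05 (adjusted p = 0.718). ATG4B had 4 of 6 probe sets that rose, the largest being 0.68 in an _a_at set. Of 5 ATG9A probe sets 3 rose, with differences of 0.23 to 0.48 over all 5. Of 3 ATG13 probe sets 2 rose, with differences of 0.24 to 0.48 over all 3. The brightest gave the largest difference for both genes. ATG14, ATG3 and NBR1, whose brightest probe sets did not pass, each had 1 other probe set that rose, and for ATG3 that set was dim, with a miR-NT mean of 3.40. The probe sets of UVRAG ran from -0.315 to 0.03 and those of ATG7 from -0.29 to 0.12, and none of them was called.

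**Figure D4:**
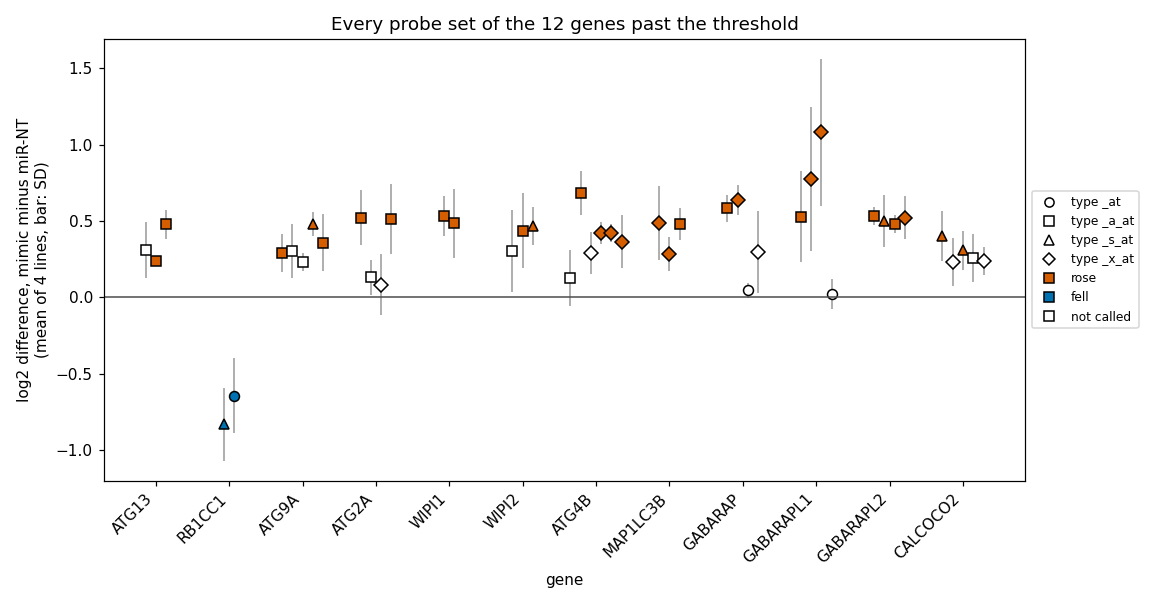
Mean log2 difference of every single-symbol probe set of the 12 autophagy genes past the threshold, with the SD of the 4 cell lines as bars, shapes for the probe set type and filled symbols for those past the threshold. The flat open circles at GABARAP and GABARAPL1 are their _at probe sets, with differences of 0.05 and 0.02.

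Since several of the 39 genes rose with the mimic, the promoters of the 39 were searched for the E-box CACGTG. It lies within the sites of the MiT-TFE factors that drive lysosome and autophagy genes. RefSeq promoter windows of 250 bases before to 50 bases after a start (GRCh38.p14) were matched for 33 of the 39 genes and for 11 of the 12 past the threshold. The E-box, read on both strands, was present for 2 of the 33, ATG3 and ATG14, and for none of the 11. Over all 35116 windows its share was 7.26%. That share is counted by window and the members by gene, with 40 windows for the 33. At so low a share, the 11 genes are too few to show a lack of the motif. The longer form TCACGTGA, which contains it, was found for ATG3 only, just after the start, against 0.98% of all windows. The 30 bases before the start of both genes are shown to place the E-box, in capitals, at chr14:55411831-55411860 and chr3:112561963-112561992 on the minus strand.
ATG14: acaaaatccCACGTGactggctctcctctc
ATG3: cctttctcacgtCACGTGccgggagagtct

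Genes around the core machinery were listed by function, and their counts stand beside the 7.36% of all genes that rose and the 5.19% that fell, or, with a line left out, the 1.74% to 4.7% that rose and the 1.92% to 4.37% that fell. Of 14 other core genes measured, 3 rose and none fell. ZFYVE1, which marks the sites where phagophores form, rose by 0.50 ± 0.14 (limma adjusted p = 0.0122). SQSTM1, the p62 cargo receptor, rose by 0.37 ± 0.18 (adjusted p = 0.0385) and EI24 by 0.27 ± 0.10 (0.0477), and neither passed with any line left out or with array medians subtracted. Only 1 gene of this list rose with any line left out.
Of 16 other receptors of selective autophagy, 4 rose and none fell. RTN3 and CCPG1, receptors for the endoplasmic reticulum, rose by 0.42 ± 0.10 (adjusted p = 0.0132) and 0.66 ± 0.26 (0.0151), and TOLLIP rose by 0.42 ± 0.20 (0.0324). The remaining rise was that of TEX264, named after its values were seen, by 0.29 ± 0.11 (0.0410). TOLLIP did not pass with any line left out (0.0663 to 0.0799), RTN3 not without HSC2 (0.0623) and CCPG1 not without Ca9-22 (0.0558). With a line left out, 1 or 2 rose, and 1 fell without SAS-L1 or Ca9-22.
Of 15 genes of fusion and tethering, 7 rose and 2 fell. VAMP8, the lysosomal SNARE partner of STX17, rose by 0.62 ± 0.05 (adjusted p = 0.00490), with 0.58 to 0.69 in the 4 lines. YKT6, a SNARE that can act in the same step, fell in each line, with a difference of -0.65 ± 0.18 (adjusted p = 0.00838). The other fall, named after its values were seen, was that of the endosomal SNARE VTI1B, at -0.25 ± 0.07 (0.0440). PLEKHM1, an adaptor between the lysosome and ATG8 proteins, rose by 0.67 ± 0.28 (adjusted p = 0.0160, and 0.0584 without Ca9-22). Leaving out any line left 2 rises and 1 fall.
Of 31 genes of mTORC1 and AMPK signaling, which restrain and start autophagy, 10 rose and 1 fell. LAMTOR3, which anchors mTORC1 signaling at the lysosome, rose by 0.70 ± 0.19 (adjusted p = 0.00816). The AMPK subunit PRKAB1 rose by 0.49 ± 0.12 (0.0102) and the GTPase RRAGB by 0.59 ± 0.23 (0.0159, and 0.0544 without HSC3). The fall, also named after its values were seen, was that of the AMPK subunit PRKAG2, at -0.64 ± 0.27 (0.0183). The rises numbered 6 without SAS-L1, 4 without HSC2, 3 without HSC3 and 4 without Ca9-22, and the fall was lost in the last 3 of these fits.
None of 10 transcription factors of autophagy genes passed limma's test, with 3 at an unadjusted p under 0.05, near the 26.3% of all genes. TFEB had a difference of 0.04 ± 0.08 (adjusted p = 0.769). The medians of the 5 lists, in the order given, were 0.10, 0.10, 0.29, 0.26 and 0.13.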

How the data were processed

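The authors hybridized labeled RNA to U219 arrays and deposited log2 signals computed by RMA in GeneSpring GX, 1 column per array. The submitters' notes also name RMA. The 8 array medians lay between 4.96 and 5.00, and no scanner files were used. Symbols came from the platform annotation, updated through RefSeq gene identifiers (45178 of 45259 probe sets with 1 symbol). Probe sets with several symbols were left out, 5 of which name a member.

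Differences were fitted in R 4.3.3 with limma 3.58.1 (lmFit, eBayes), blocking on cell line, and p-values were adjusted by Benjamini-Hochberg across 18239 genes. The pairing follows from the lines. Deviations from the condition mean correlated at 0.836 to 0.886 within lines. The fit was tested on simulated data with independent normal noise. The outcome is not given here, so that test does not vouch for calls of the sizes reported. Precision is limited by the small number of arrays. The p-values set the mean difference within lines against its spread between these lines, with the variance moderated over all genes. With 1 array per line and condition, that spread also holds the variation of arrays and transfections.

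The members and lists were chosen with earlier results of these data known. All members are given, and of each list up to 3 genes with the smallest p past the threshold, with SQSTM1 and TFEB. Alternatives were the fit without the block, other scalings, the mean of probe sets, each line left out, another variance model, dim genes removed, the methods' t-test and a 1.5-fold threshold.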

Additional observations from a re-analysis of the deposited data

Results flagged for a closer look

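In 4 arrays of a condition, or 4 differences, a value was singled out when its gap to the nearest other value, as a share of the range, exceeded Dixon's critical value. Chance does this in about 1 in 20 groups, and 11 of the 117 groups of the 39 genes were singled out. WIPI1 in HSC2 stood apart in both conditions, at 7.11 with miR-NT, where the other lines had 5.25 to 5.34, and at 7.79 with the mimic, where they had 5.64 to 5.88. ATG2A in HSC3 was 8.64 with the mimic, and ATG4D in Ca9-22 was 7.08. TAX1BP1 was low in Ca9-22 with the mimic, at 8.87, and ATG10 was high in SAS-L1, at 5.92. With miR-NT, AMBRA1 was high in HSC3 at 7.04, ULK2 low in HSC3 at 4.00 and EPG5 high in SAS-L1 at 6.35. Among the differences between mimic and miR-NT, that of MAP1LC3A in HSC3 (0.50) was high and that of ATG13 in SAS-L1 (0.34) was low.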

How the results depend on the processing

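Of the 39 genes, 11 rose and 1 fell in the paired fit. Without the block for cell line (no replicate block), limma called 0 higher and 0 lower, where of all 18239 genes 0 rose and 6 fell. With so few genes called at all, these zeros say little about the 39 genes. The methods' t-test was run between the conditions without pairing by line, so the distance between the lines enters its error. It called 4 higher and 1 lower at an unadjusted p under 0.05 but 0 and 0 after Benjamini-Hochberg. Its share over all genes is not given here. With a 1.5-fold threshold added, 1 rose, GABARAPL1, and 1 fell. All the other rises were under 1.5-fold, GABARAP narrowly so at 1.499-fold. The share of all genes past that threshold is not given here. With a line left out, 5 to 12 rose and the median difference of the 39 genes lay between 0.17 and 0.27, against 0.23. These fits use 6 arrays in place of 8. Array medians subtracted, quantile normalization and another variance model kept all 12 calls and added none. In these fits, in that order, 1119, 1136 and 1222 of all 18239 genes rose and 989, 1022 and 938 fell. Subtracting array medians moved the median of all genes from 0.03 to 0.00. The mean of probe sets added ATG101 and ATG3 (13 rises), where 1301 of all 18239 genes rose. Leaving out dim genes removed 3 members and added WDR45 (12 rises), where 1437 of the remaining 10749 genes rose. No direction of a called gene turned in any alternative.
Of the other lists, without the block none had a gene that rose or fell, in a fit where 0 rose and 6 fell of all 18239 genes. The 3 rises of other core genes became 1 with array medians subtracted, where the mean of probe sets gave 1 fall. The 2 falls of fusion genes became 1 with quantile normalization or another variance model. The dim signals of ULK1, ULK2 and MAP1LC3A limit what change could be seen in them.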
